A study of Homo sapiens with 2 samples.

Results

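Polyadenylated RNA of 2 related human colorectal cancer cell lines, MIP/5FU and MIP101, was sequenced as 1 library of each, and the last exons of protein-coding genes are described here. MIP101 derives from a liver metastasis and responds to 5-fluorouracil (5-FU), a uracil analog whose metabolites inhibit thymidylate synthase and are built into RNA. MIP/5FU is a single clone obtained from MIP101 by passage in rising 5-FU; it was maintained in 5 µM 5-FU, and its IC50 was 10-fold higher. For RNA, both cultures were kept in drug-free medium for about 48 hours. Last exon regions were taken as the regions that carry the highest exon number of a protein-coding gene with at least 3 numbered exons. A gene needed at least 200 reads over both libraries and 10 in each, and a region needed a coverage of at least 2000 bases of read over both. This left 15683 of 20269 such regions, in 11476 of 12331 genes, out of 277804 exon regions in all. The region with the lowest coverage inside the limit was ER9a of CSTPP1 with 2005 bases, and the highest outside it was ER13a of SHC3 with 1995.

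The last exon of a gene usually holds the stop codon and the 3′ untranslated region, and its end is set when the pre-mRNA is cut and polyadenylated. The cleavage machinery reads the hexamer AAUAAA, or a variant such as AUUAAA, a short way upstream of the cut. Many genes carry several such sites: a cut at a near site gives a short 3′ untranslated region, and a cut at a far site in the same exon a longer one, which can hold more binding sites for miRNAs and RNA-binding proteins. A gene can also end in an alternative last exon. In the authors' annotation, a region name gives the exon number and a letter for each part of an exon, both in 5′ to 3′ order of the gene. The annotation also gives the unmasked bases of each region, and no region was left out for masked bases. A last exon with several letters therefore has a near part, the first letter, and a far part, the last one.

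The annotated ends were set against sequence to check that they mark 3′ ends. Of 18073 annotated last exon ends, 7331 were matched to a GENCODE 29 transcript of the same gene with a last exon of the same length. AATAAA, the DNA form of the hexamer, was searched on the transcript strand in the last 50 bases, and ATTAAA where AATAAA was missing. AATAAA was present at 55.0% of the 5213 matched ends of the last exon regions, against 35.5% of 83129 GENCODE 29 protein-coding transcripts. ATTAAA was found at a further 627 of those region ends and 7223 of the transcripts, a set that includes transcripts annotated without a complete 3′ end. In last exons with both a near and a far part measured, far parts ended with AATAAA at 65.6% of 742 ends and near parts at 22.4% of 599. A match is a description of the letters in that window and does not show that a site was used.

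Ends are shown for the counted regions and the near and far parts of genes described below with 500 reads or more in each line's library, where an end could be matched. The counted region of CST3, the far part of MLPH and some others had no match, and those of HUWE1, SEPTIN6 and HPS4 are not shown. Each window has 30 bases, 5′ to 3′ on the gene's strand, with the hexamer in capitals; where neither hexamer was found, the last 30 bases of the exon are given. The bases come from GENCODE 29 transcripts (GRCh38), while all coordinates below are on hg18, the build of the files.
HNRNPA2B1 ER12b end: catttatgatttAATAAAataattctaaag
HNRNPA2B1 ER12c end: ttggctgtccccAATAAAatgctgttcatt
SLC25A3 ER8a end: atttactgttgaAATAAAcccaactcttca
SLC25A3 ER8b end: attttggcaagtaaatgtcagtgtatactt
MYO6 ER36b end: ctgaagtaaatgacctattctctctcttcc
MYO6 ER36c end: gaaatacaaataAATAAAtgctccctgtgt
RAE1 ER13a end: gctgtattttgtAATAAAgtcttttgcaga
RAE1 ER13b end: aaaaacaatgaaAATAAAattttctactgg
AKNA ER26a end: gagggcaaatgaagaatgaatattgatctt
AKNA ER26c end: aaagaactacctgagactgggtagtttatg
MLPH ER17a end: tggaaaaaagatgactcagttaaggcacca
TTC7A ER25a end: cctcagggaaatacatctttagtgaacgcc
TTC7A ER25b end: attataacctgcATTAAAacaactctaaag
STK32C ER17a end: acctctgagaattacaatgtgagaaccgct
MCF2L ER40h end: aactccatatcaAATAAAaaattttaaata
TMEM177 ER3a end: agctgaaagcagaggacacatgtggcctta
ZBTB1 ER5a end: ttgtttttacctAATAAAatttcctcctct
PRDM2 ER16a end: aagagaattaacAATAAAagtgtgaagagc
ZNF814 ER7a end: cagagttcacactggagaaaagccatatga
ER12b of HNRNPA2B1, which is 8 bases long, and ER36b of MYO6 lie between the near and the far part compared below. HNRNPA2B1 and RAE1 carried AATAAA at both ends shown. In SLC25A3 it stood at the near end, and in MYO6 at the far end. Neither hexamer was found at the ends shown of AKNA, MLPH, STK32C, TMEM177 and ZNF814 or at the first of the TTC7A ends.

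Reads assigned to genes numbered 109693681 in MIP/5FU and 200141071 in MIP101. The exon region tables give coverage and no reads, so coverage was divided by the mean bases per read, 39.8 in MIP/5FU and 40.4 in MIP101, to give read equivalents. Since each line has 1 library, no difference was checked in replicates, and the intervals express counting error alone. They are too narrow, because PCR copies without molecular identifiers were counted as separate molecules. The labelled cell type was met by its markers: all 8 epithelial and colon genes were detected, from 2124 reads for KRT20 to 421674 for KRT8 in MIP/5FU, and from 572 to 662202 for the same genes in MIP101. PTPRC and CD3E of blood cells and PECAM1 and VWF of endothelium had at most 10 reads each in MIP/5FU and at most 17 in MIP101. Of the liver markers, ALB had 68 reads in MIP/5FU and 68 in MIP101, CYP3A4 56 in MIP/5FU and 80 in MIP101, and APOA1 none in either. LYZ, from the blood list, had 188 in MIP/5FU and 245 in MIP101, and from the fibroblast list COL1A1 had 37 in MIP/5FU and 72 in MIP101 and PDGFRB 1788 in MIP/5FU and 2465 in MIP101. In bulk RNA, fewer cells with a transcript and less of it per cell cannot be told apart.

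Last exons took slightly more of their gene's coverage in MIP/5FU. The last exon held a median of 38.4% of the gene's coverage in MIP/5FU and 37.1% in MIP101, and over all genes summed 34.8% in MIP/5FU and 33.9% in MIP101. Per base, the last exon was covered at a median of 91.2% of the other exons in MIP/5FU and 86.7% in MIP101. In 635 genes of MIP/5FU and 655 of MIP101 the last exon was covered at under 10% of the other exons, and 595 genes were common to both lists. These are genes whose annotated last exon was little used in either line.

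The change of each region was measured against its gene with the splicing index, the log2 ratio of the region (MIP/5FU over MIP101) minus the log2 ratio of the gene's reads. Its median was 0.03 in last exons, 0.05 in 10979 first exon regions and -0.03 in 110213 regions between them, against -0.01 over all 139787 regions tested. Of the last exon regions 67.7% had an index above 0, against 45.7% of all regions. Counted back from the last exon, the exon before it had a median of -0.02, and the 8 exons further upstream stayed between -0.03 and -0.02. Counted from the first exon, the median declined over the first 5 exons, with -0.0070 at exon 2, -0.020 at exon 3, -0.025 at exon 4 and -0.032 at exon 5. The shift is small beside the spread of the regions: the middle 50% of last exon regions lay between -0.02 and 0.11, and the middle 90% between -0.20 and 0.33. With 1 library per line, a difference between preparations and one between the lines cannot be told apart.

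**Figure D1:**
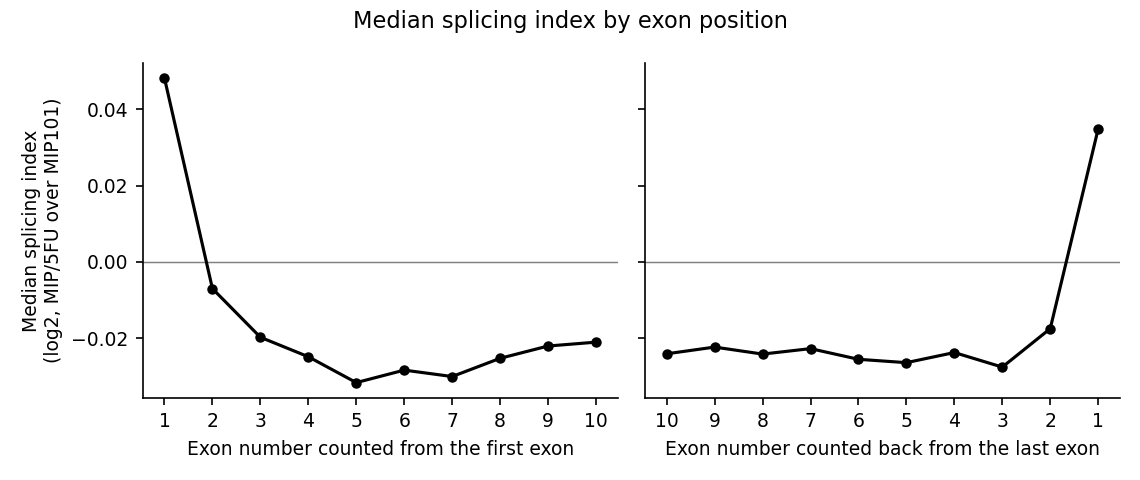
Median splicing index (log2, MIP/5FU over MIP101) of exon regions by exon number, counted from the first exon (left) and back from the last exon (right). The first exon stands at 0.05 and the last at 0.03, and the next 9 exons from either end lie below 0.

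The median index was higher in noncoding and little-used parts. Regions with no coding base had a median index of 0.06 (3462 regions), those with coding and noncoding bases 0.03 (10457 regions), and coding regions 0.00 (1764 regions). Far parts had a median of 0.07 (1929 regions) and near parts 0.02 (3668 regions). The 324 regions covered at under 10% of the other exons per base had a median of 0.18. A region's reads are also part of its gene's reads, so the index is held smaller in size in well-covered regions than in little-covered ones. How much of these differences follows from the measure was not tested.

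A region was counted as changed at an index of at least 1 in size (2-fold) with a 99.9% interval that excludes 0. In MIP/5FU, 20 last exon regions were counted higher than their gene and 12 lower, in 31 genes. That is 0.128% of the regions higher, against a background of 0.157% over all exon regions, and 0.0765% lower, against 0.109%. The remaining 15651 were not counted. At a size of 1.5-fold the counts were 80 higher (0.510%, background 0.394%) and 29 lower (0.185%, background 0.202%), so the share counted higher lay below the background at 2-fold and above it at 1.5-fold. The counts also depend on the reference: against the coverage of the other exons 78 regions were counted higher and 30 lower, and against the median of the other regions 47 were counted higher and 13 lower. No background was computed for these 2 references. Of the 20 regions counted higher, 12 were covered at under 10% of the other exons (mean of both lines) and 11 had no coding base. Of the 12 counted lower, 0 were in the first class, 2 had no value for it because the other exons had no coverage in MIP/5FU, and 2 had no coding base. A region with many of its gene's reads reaches the size required less easily, because those reads are also in the reference. Requiring 500 gene reads or more per library left 15 regions higher and 5 lower of 13595, and these are described next.

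CST3, which encodes cystatin C, a secreted inhibitor of cysteine proteases, had the highest index. Its ER5a (chr20:23556534-23558102, minus strand) has 1569 noncoding bases, of which 843 are unmasked. It had 874 read equivalents in MIP/5FU and 543 in MIP101, while the gene had 5489 reads in MIP/5FU and 15062 in MIP101. The index was 2.14 (99.9% interval 1.87 to 2.42), a 4.42-fold change relative to the gene. This exon lies beyond the main one: it was covered at 10.2% of the other exons in MIP/5FU and 2.03% in MIP101. The junction from exon 3 into exon 5, which no Ensembl transcript has, was read 25 times in MIP/5FU and 6 times in MIP101, and the annotated junction from exon 4 into exon 5 was read 2 times in MIP/5FU and 11 times in MIP101. All 5 other regions of CST3 tested had indices between -0.28 and 0.08.

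TMEM177, a mitochondrial membrane protein, and ZBTB1, a zinc finger transcription factor, followed. TMEM177 ER3a had 182 read equivalents in MIP/5FU and 119 in MIP101, an index of 1.78 (1.21 to 2.37). ZBTB1 ER5a had 138 read equivalents in MIP/5FU and 117 in MIP101, an index of 1.61 (1.00 to 2.24), and its end carries the AATAAA printed above. In both genes the last exon was a minor one, covered at 14.4% and 8.17% of the other exons in MIP/5FU and 3.96% and 2.57% in MIP101. PRDM2, a histone methyltransferase with zinc fingers, had 438 read equivalents on ER16a in MIP/5FU and 280.3 in MIP101, an index of 1.36 (0.99 to 1.74). The exon before it in PRDM2, ER15a, moved with it, at 40.5 read equivalents in MIP/5FU and 26.2 in MIP101 (index 1.33, 0.12 to 2.63). The last 2 exons of PRDM2 were thus higher together, whereas its other 5 tested regions were not counted.

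Of the other regions counted higher, ER17a of FER1L4 had an index of 1.53, with 50.8 read equivalents in MIP/5FU and 14.2 in MIP101. MICALL2, a scaffold of cell junctions, had 1.45 on 42.9 read equivalents in MIP/5FU and 32.8 in MIP101. ITSN1, an endocytic scaffold, had 1.41 on 37.2 in MIP/5FU and 20.9 in MIP101. These 3 rest on few reads, and the lower limits of their intervals were 0.16, 0.32 and 0.10. FER1L4 was no longer counted against the median of the other regions, at 1.00. ZNF814, a zinc finger gene, had an index of 1.22 (0.67 to 1.77), with 150.4 read equivalents in MIP/5FU and 252 in MIP101, in a gene that was itself lower in MIP/5FU (525 reads in MIP/5FU and 2052 in MIP101). The 6 other ZNF814 regions tested had indices from -2.06 to 0.66 and 2 of them were counted, so the last exon was not alone. The end printed for ZNF814 held neither hexamer and is not shown to be a 3′ end. Whether short reads of similar zinc finger genes were placed on this region was not tested, so its value is uncertain. DCBLD1 had 1.20 (0.05 to 2.24), but 117 of its 234 bases also belong to GOPC on the opposite strand, and reads of the 2 genes cannot be told apart because the protocol marks no strand. HUWE1, SEPTIN6 and HPS4, named after their values were seen, had indices of 1.09, 1.09 and 1.01, each on a noncoding region covered at under 12% of the other exons in both lines.

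**Figure D2:**
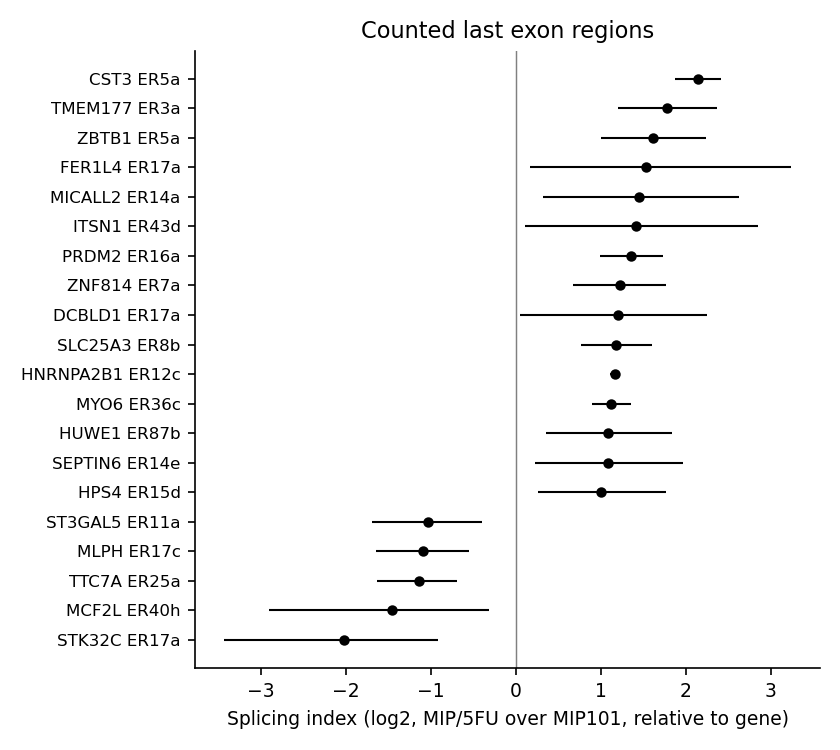
Splicing index (log2, MIP/5FU over MIP101, relative to the gene) with 99.9% counting intervals of the 20 counted last exon regions in genes with 500 reads or more per library. CST3 ER5a stands highest at 2.14 and STK32C ER17a lowest at -2.02; the intervals of FER1L4, ITSN1 and DCBLD1 come closest to 0 among those above it.

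TTC7A had a lower last exon by coverage and by junction reads. TTC7A is a scaffold of the kinase complex that makes phosphatidylinositol 4-phosphate at the plasma membrane. Its ER25a (chr2:47154345-47154691, plus strand, 222 of 347 bases coding) had 125 read equivalents in MIP/5FU and 940 in MIP101, an index of -1.14 (-1.63 to -0.69). The noncoding ER25b that follows had 560.2 in MIP/5FU and 3577 in MIP101, an index of -0.91 (-1.15 to -0.67), just short of the size required. The junction from exon 24 into exon 25 was read 5 times in MIP/5FU and 80 times in MIP101, an index of -2.10 (-5.26 to -0.32). All 21 other TTC7A regions tested had an index above 0, from 0.08 to 1.02, and the exon before the last had 274 read equivalents in MIP/5FU and 660.3 in MIP101. The drop thus lay between exons 24 and 25.

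STK32C, a serine/threonine kinase gene, differed from TTC7A in that the last exon was not alone. Its ER17a had 18.2 read equivalents in MIP/5FU and 166 in MIP101, an index of -2.02 (-3.44 to -0.92). The 4 tested regions of exons 8 to 14 were counted lower as well, from -1.60 to -3.04, while exons 1 and 2 had 0.82 and 0.86. Against the median of the other regions, the index of ER17a was -0.19 and was not counted. The junction into the last exon was read 0 times in MIP/5FU and 13 times in MIP101.

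The remaining regions counted lower were in MCF2L, MLPH and ST3GAL5. MCF2L, a guanine nucleotide exchange factor, had 18.1 read equivalents on ER40h in MIP/5FU and 88.3 in MIP101, an index of -1.46 (-2.91 to -0.31). MLPH, which links Rab27a to myosin in organelle transport, had 153 on ER17c in MIP/5FU and 179 in MIP101, an index of -1.10 (-1.65 to -0.56), in a gene with more reads in MIP/5FU (4642 reads in MIP/5FU and 2530 in MIP101). ST3GAL5, the synthase of ganglioside GM3, had 107 on ER11a in MIP/5FU and 184 in MIP101, an index of -1.03 (-1.69 to -0.40). This is the first part of its last exon, and the part that follows was not counted. The junction from exon 10 to the start of exon 11 was read 7 times in MIP/5FU and 9 times in MIP101. An annotated junction from exon 9 to a later point in exon 11 was read 10 times in MIP/5FU and 3 times in MIP101. ER11a is therefore not shown to mark a near 3′ end.

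**Figure D3:**
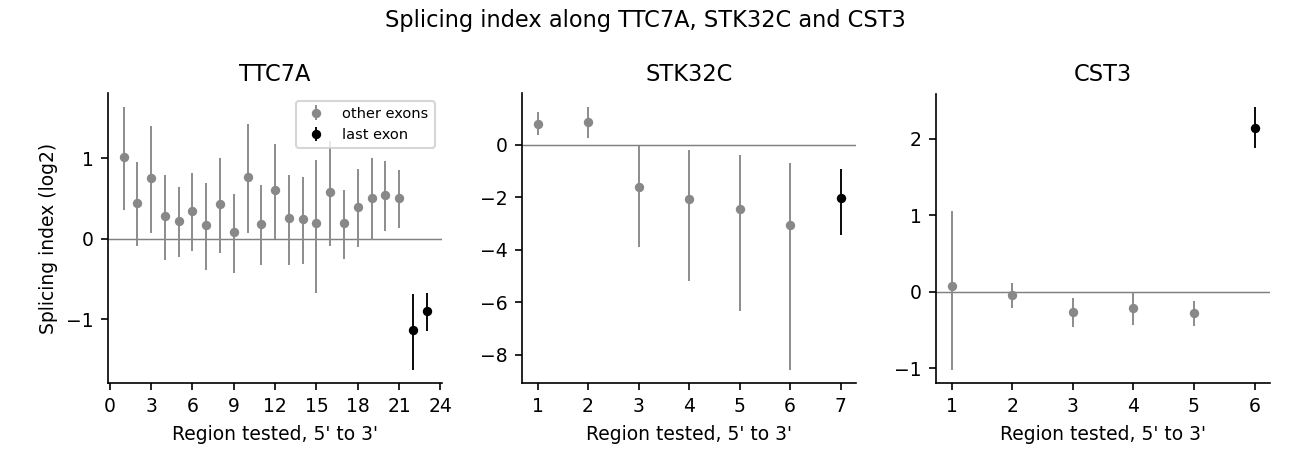
Splicing index (log2) of each tested region of TTC7A, STK32C and CST3 in 5′ to 3′ order, last exon in black and other exons in grey, with 99.9% counting intervals. In TTC7A only the last exon lies below 0, in STK32C 5 of 7 regions do, and in CST3 the last exon stands at 2.14 while the others lie between -0.28 and 0.08.

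Near and far parts of the same last exon were then compared. Lettered parts can come from several 3′ ends but also from splice sites inside the exon. A change between them is therefore not by itself a change in 3′ end length. Several lettered regions were present in 4186 last exons, and 1694 had at least 2000 bases of coverage on both the near and the far part. Of these 1694, 265 hold an annotated junction inside. The far/near change is the log2 of far over near read equivalents in MIP/5FU minus the same in MIP101. Far parts were slightly more covered in MIP/5FU: a far part had a median of 57.4% of the near part's coverage per base in MIP/5FU and 54.9% in MIP101. The median far/near change was 0.09 in last exons and -0.01 in 4292 other exons with several letters. It was above 0 in 1183 of the last exons (69.8%) and in 2051 of the other exons (47.8%). Far parts under 10% of their near part numbered 149 in MIP/5FU and 165 in MIP101, with 139 in both. Most far parts that were rarely covered in one line were thus rarely covered in the other. Far parts covered above their near part numbered 208 in MIP/5FU and 156 in MIP101, and the reason was not tested.

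By the same rule, 9 last exons were counted with a relatively higher far part in MIP/5FU and 3 with a lower one, against backgrounds of 0.601% higher and 0.184% lower over the 5986 exons compared. That is 0.531% of last exons higher and 0.177% lower; the 4292 other exons gave 27 higher (0.629%) and 8 lower (0.186%). At a size of 1.5-fold, 35 last exons were higher (2.07%, background 1.65%) and 7 lower (0.413%, background 0.601%), while other exons gave 64 higher (1.49%) and 29 lower (0.676%). Last exons were thus counted higher less often at 2-fold and more often at 1.5-fold, and neither difference was tested. Each of the 3 lower ones was in a gene with 500 reads or more per library, and of the 9 higher ones 4 were.

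HNRNPA2B1 had the change with the narrowest interval. It encodes an RNA-binding protein of the hnRNP family that packages pre-mRNA and takes part in splicing; the files list it as HNRPA2B1. Its last exon is noncoding, and the far part ER12c (chr7:26196081-26197988, minus strand) had 17497 read equivalents in MIP/5FU and 13396 in MIP101, while the near part ER12a (chr7:26197997-26198483) had 25221 in MIP/5FU and 49747 in MIP101. Per base the far part stood at 17.7% of the near part in MIP/5FU and 6.87% in MIP101, a change of 1.37 (1.30 to 1.43). The ends of ER12b and ER12c carry AATAAA in the windows printed above, and no end of ER12a is shown. The junction into its last exon, read 1988 times in MIP/5FU and 4577 times in MIP101, had an index of -0.43 (-0.56 to -0.30), which is not large enough to be counted.

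SLC25A3, the mitochondrial phosphate carrier, and MYO6, the myosin that moves toward the minus end of actin, changed in the same direction, with far parts that were minor. In SLC25A3 the far part ER8b (chr12:97519617-97519906, plus strand) had 309 read equivalents in MIP/5FU and 237 in MIP101, and the near part had 9122 in MIP/5FU and 15893 in MIP101. The far part stood at 3.97% of the near part in MIP/5FU and 1.75% in MIP101, a change of 1.18 (0.77 to 1.61). In MYO6 the far part ER36c (chr6:76683050-76685974, plus strand) had 889 read equivalents in MIP/5FU and 861 in MIP101, and the near part had 4541 in MIP/5FU and 9318 in MIP101. Its far part stood at 9.47% of the near part in MIP/5FU and 4.47% in MIP101, a change of 1.08 (0.84 to 1.33). In both genes the far part was covered at under 10% of the near part in each line. CBARP, which the files list under an older name, had a change of 1.07 (0.11 to 2.07), but an annotated intron lies inside its last exon, and with all later parts summed the change was 0.46 and not counted.

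A relatively lower far part in MIP/5FU was counted in AKNA, MLPH and RAE1. RAE1, which takes part in mRNA export and mitosis, had 45.7 read equivalents on its far part ER13b in MIP/5FU and 151 in MIP101, and 1761 on its near part in MIP/5FU and 2789 in MIP101. The far part stood at 1.57% of the near part in MIP/5FU and 3.26% in MIP101, a change of -1.05 (-1.93 to -0.26), and both ends carry AATAAA. AKNA, a centrosomal protein, had 159 read equivalents on its far part in MIP/5FU and 199 in MIP101, and 107 on its near part in MIP/5FU and 40.4 in MIP101, a change of -1.72 (-2.81 to -0.72). Per base the AKNA far part stood at 86.1% of the near part in MIP/5FU and 286% in MIP101. In MIP101 it was thus covered above the near part, so the change is not shown to be one of 3′ end length. MLPH had a change of -1.07 (-1.68 to -0.46), with a far part at 6.91% of the near part in MIP/5FU and 14.5% in MIP101.

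**Figure D4:**
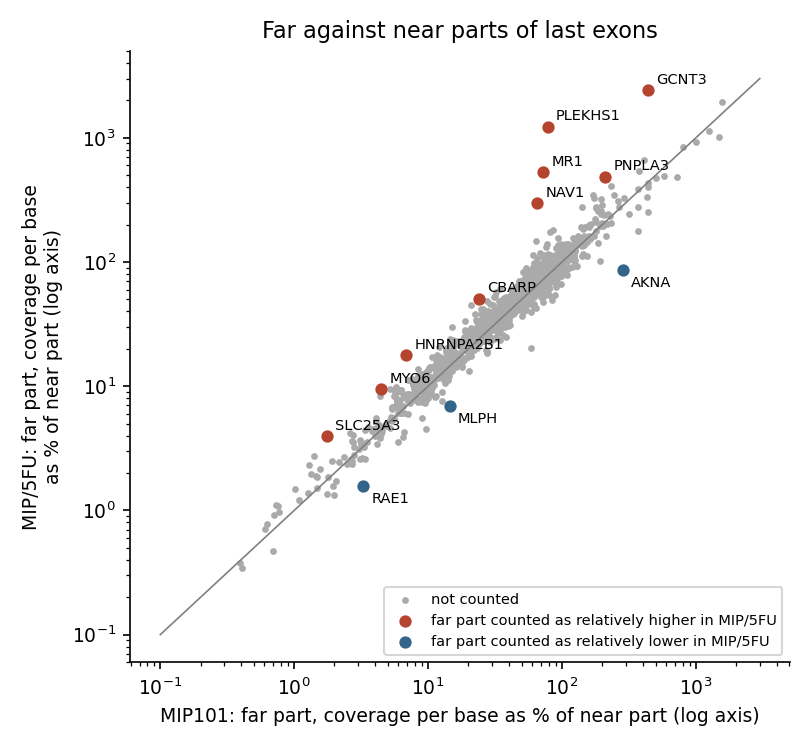
Coverage per base of the far part as a percent of the near part in MIP/5FU (vertical) against MIP101 (horizontal), log axes, 1 point per last exon compared; the line marks equality. HNRNPA2B1, MYO6, SLC25A3 and 6 other last exons are counted above the line, and AKNA, MLPH and RAE1 below it.

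The other 5 counted far/near changes, named after their values were seen, were in genes with under 500 reads in at least 1 library. PLEKHS1, MR1, GCNT3, NAV1 and PNPLA3 had changes of 3.81, 2.79, 2.40, 2.16 and 1.21. Per base, the far part in MIP/5FU stood at 1230%, 530%, 2414%, 298% and 487% of the near part, in the same order. In MIP101 it stood at 78.2%, 72.6%, 440%, 65.5% and 210%. The far part was thus covered above the near part in MIP/5FU, so these changes are not shown to be ones of 3′ end length. Of the far part's bases, 182 of 996 are unmasked in PLEKHS1, 568 of 1028 in MR1 and 416 of 819 in GCNT3. In NAV1 1249 of 1649 are unmasked, and in PNPLA3 110 of 507. In MR1, which presents vitamin metabolites to T cells, the near part had 8.57 read equivalents in MIP/5FU and 308 in MIP101, and the far part 156 in MIP/5FU and 770.0 in MIP101. In NAV1 the near part had 23.1 in MIP/5FU and 263 in MIP101, and the far part 124 in MIP/5FU and 311 in MIP101. Both parts had fewer read equivalents in MIP/5FU in these 2 genes, the near part by more, and the whole gene was lower in MIP/5FU in MR1 (312 reads in MIP/5FU and 2181 in MIP101) and NAV1 (322 reads in MIP/5FU and 2831 in MIP101). With all later parts summed, the change in NAV1 was 0.79 and not counted, and that in PLEKHS1 was 2.67. The near part of PLEKHS1 had 3.89 read equivalents in MIP/5FU and 130.2 in MIP101 (interval of the change 1.843 to 7.599). The near part of GCNT3 had 10.1 in MIP/5FU and 61.1 in MIP101 (interval of the change 0.81 to 4.52). The changes in PLEKHS1 and GCNT3 thus rest on few reads of the near part in MIP/5FU, and their size is uncertain.

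Whole last exons were also set against all other exons of their gene, which keeps the last exon out of its own reference. Over 11497 last exons the median change was 0.07, and 59 were counted higher (0.513%) and 22 lower (0.191%). No other class of exon was set against the rest of its gene in this way. These counts therefore have no background, and whether they are particular to last exons was not tested. In 17 of the 59 the other exons had under 10 read equivalents in MIP/5FU, and 9 were in genes at least 4-fold lower in MIP/5FU, of 77 such genes among all those compared. In genes with 500 reads or more per library, 15 were higher and 7 lower. All examples in this comparison were named after their values were seen. FBLIM1, a filamin-binding adaptor, kept 604 read equivalents on its last exon in MIP/5FU, against 1618 in MIP101, but had 9.50 on its other exons in MIP/5FU, against 469 in MIP101 (change 4.13, 2.80 to 6.18). ICAM1, a cell adhesion receptor, had 77.3 on its last exon in MIP/5FU and 270 in MIP101, with 0 on its other exons in MIP/5FU and 150.3 in MIP101. KCNJ5, a potassium channel, had 398 on its last exon in MIP/5FU and 1299 in MIP101, and 132 on its other exons in MIP/5FU and 1039 in MIP101. LRRC61 had 1626 on its last exon in MIP/5FU and 723 in MIP101, and 387 on its other exons in MIP/5FU and 455 in MIP101. In FBLIM1 and ICAM1 the last exon thus kept coverage while the other exons had few or no reads in MIP/5FU. In FBLIM1, 486 of 802 bases of ER11a and 936 of 1240 of ER11b are unmasked. The junction into the last exon of FBLIM1 was read 0 times in MIP/5FU and 10 times in MIP101. For KCNJ5 this was 0 times in MIP/5FU and 7 in MIP101, and for LRRC61 28 in MIP/5FU and 13 in MIP101. Coverage alone does not show that a last exon was spliced to the rest of its gene.

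Among last exons counted lower in genes with 500 reads or more per library, STK32C had -2.19, A1BG -1.35 (-2.51 to -0.26) and TTC7A -1.34 (-1.57 to -1.12). The last exon of A1BG had 540 read equivalents in MIP/5FU and 808 in MIP101. Its other exons had few, 55.7 in MIP/5FU and 32.6 in MIP101. Against the whole gene, A1BG ER8a had an index of -0.07 (-0.43 to 0.30) and was not counted, and 763 of its 1852 bases are unmasked. C5, a complement component with fewer reads, had 16.9 read equivalents on its last exon in MIP/5FU and 582 in MIP101, and 223 on its other exons in MIP/5FU and 337 in MIP101, a change of -4.47 (-5.95 to -3.35). The exon before the last in C5, the only other region tested, was counted lower too, with 5.45 in MIP/5FU and 126 in MIP101 (index -2.48). CRB2, a cell polarity protein, had 385 on its last exon in MIP/5FU and 1530.1 in MIP101, and 143 on its other exons in MIP/5FU and 227 in MIP101. SLAMF6 had more reads over the whole gene in MIP/5FU, with 719 on its last exon in MIP/5FU and 401 in MIP101, and 414 on its other exons in MIP/5FU and 104 in MIP101.

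**Figure D5:**
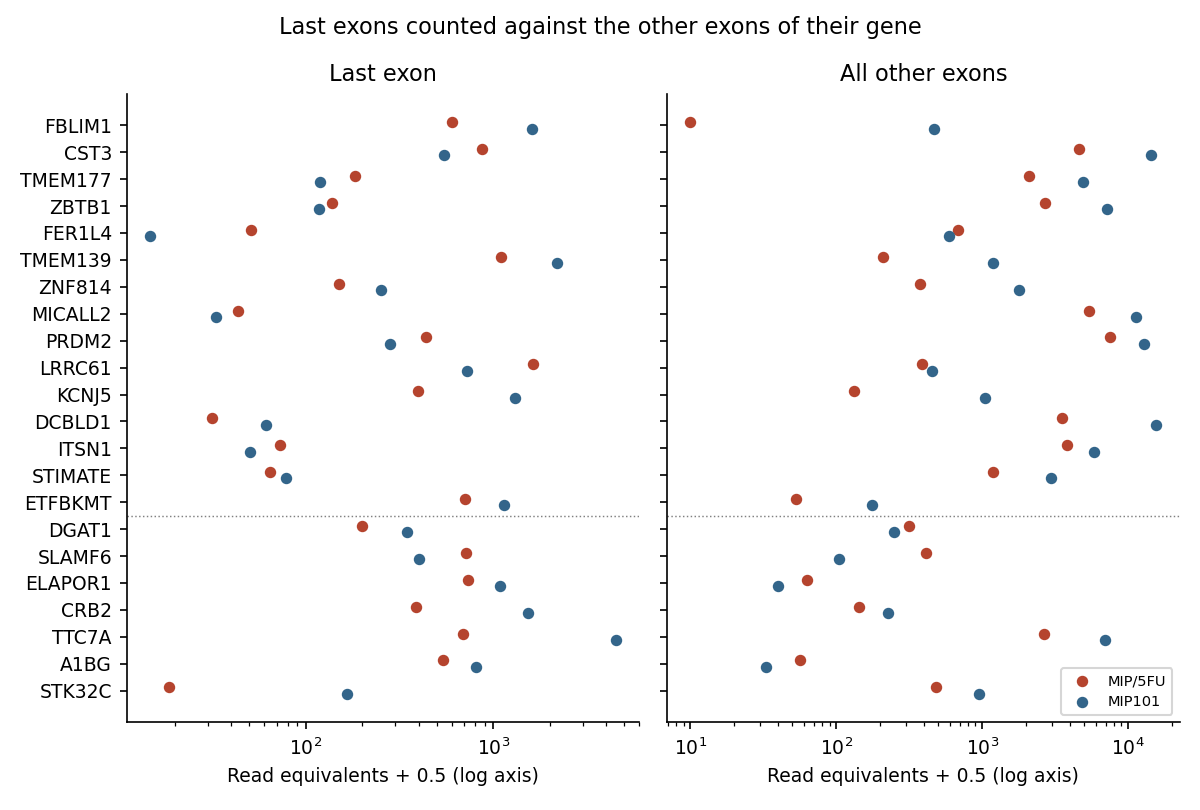
Read equivalents plus 0.5 (log axis) on the last exon (left) and on all other exons (right) in MIP/5FU and MIP101, for the 22 last exons counted against the other exons in genes with 500 reads or more per library; genes above the dotted line had a relatively higher last exon in MIP/5FU. Values are not scaled for depth, which was 109693681 gene reads in MIP/5FU and 200141071 in MIP101; FBLIM1 keeps 604 on its last exon and 9.50 elsewhere in MIP/5FU.

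Junctions into the last exon gave a second measure, since a read across them shows that the exon was spliced in. Last junctions were those from the exon before the last, without skipping. Of 8525 last junctions with at least 20 reads, in 8453 genes, 3 were counted higher and 5 lower, against backgrounds of 0.0291% and 0.0723% over 99553 junctions between neighbouring exons. Their median index was -0.04, against -0.05 over all those junctions. PSMB5, a catalytic proteasome subunit, had 31 reads in MIP/5FU and 29 in MIP101 (index 1.43, 0.15 to 2.73). The PSMB5 gene had 11804 reads in MIP/5FU and 29840 in MIP101, so few of its reads crossed this junction. PHPT1, a histidine phosphatase, had 51 reads in MIP/5FU and 44 in MIP101 (1.41, 0.40 to 2.44), and ZNF398, a zinc finger gene, had 61 reads in MIP/5FU and 51 in MIP101 (1.10, 0.17 to 2.05). The lower ones beside TTC7A were CHAC2, an enzyme of glutathione breakdown, with 16 reads in MIP/5FU and 132 in MIP101 (-1.61), and TATDN3 with 11 reads in MIP/5FU and 76 in MIP101 (-1.51). SUV39H1, a histone H3 methyltransferase, had 40 reads in MIP/5FU and 133 in MIP101 (-1.02), and TSC22D1, a transcriptional regulator, had 56 in MIP/5FU and 254 in MIP101 (-1.01). Of these 8 genes, TTC7A was the only one also counted by its last exon region. Of the 32 counted last exon regions, only 10 had last junctions with at least 20 reads. The others could not be set against this measure. Junctions that skip an exon are not in these counts: the CST3 junction from exon 3 into exon 5 described above had an index of 3.43 (1.47 to 6.31). PPP1CB, a phosphatase subunit named after its value was seen, had 21 reads from exon 5 into exon 8 in MIP/5FU and 91 in MIP101 (-1.12, -2.45 to -0.04).

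Genes of the 3′ end processing machinery were described as a list. It holds the cleavage and polyadenylation factors, poly(A) polymerases and regulators of site choice; 32 of 34 genes had a member, and 0 of their 42 regions were counted, where 0.204% of all last exon regions were; a list of this size would rarely hold a counted region. Their median index was 0.07, against 0.03 in all last exon regions. ELAVL1, an RNA-binding protein that stabilises transcripts, had the largest: its far part ER9b had 905 read equivalents in MIP/5FU and 995 in MIP101, an index of 0.84 (0.62 to 1.06), and its far part stood at 2.33% of the near part in MIP/5FU and 1.29% in MIP101. SYMPK, the scaffold symplekin, had 0.33 (-0.02 to 0.66), HNRNPH1 0.30 (0.16 to 0.44) and CSTF3, a subunit of the cleavage stimulation factor, -0.32 (-0.54 to -0.10). Genes known for more than one 3′ end gave 43 regions in 33 of 37 genes, none counted, with a median of 0.03. CASP8, the apoptosis initiator caspase, had -0.62 (-1.46 to 0.12) on ER15a.

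Of the genes of 5-FU metabolism, 5 last exon regions were measured and 0 were counted, too few to read against that share. TYMS, thymidylate synthase and the main target of 5-FU, had 31684 read equivalents on its last exon in MIP/5FU and 35757 in MIP101, an index of 0.03 (-0.01 to 0.08). UMPS, which makes the active nucleotide from 5-FU, had 1259 in MIP/5FU and 3773 in MIP101, an index of 0.23 (0.06 to 0.41), with the gene at 4457 reads in MIP/5FU and 15699 in MIP101. UCK2, a uridine-cytidine kinase, had -0.03, TYMP, thymidine phosphorylase, -0.42 (-1.70 to 0.78), and DPYD, which breaks 5-FU down, -0.71 (-1.96 to 0.37).

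Regions of 1 gene share its reads and are not independent. Bases shared with another annotated gene were present in 924 last exon regions (5.89%), of which DCBLD1 ER17a was the only one counted by the splicing index. Of the last exons counted against the other exons, 5 shared bases with another gene. Among the counted far/near changes, that of PNPLA3 did.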

How the data were processed

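Polyadenylated RNA was made into cDNA with random hexamers, per the labels' protocols, with fragments of 227 bases on average (SD 35.2). Paired reads had 42 or 36 bases, per the design text, and no step of the protocol marks strand. The authors placed reads on features of Ensembl release 53, per the file names, on hg18, per the submitters' processing notes; no label or file header names the aligner. Gene and junction files as deposited hold raw read counts. The deposited coverage signal is the authors' sum of read bases over a feature, and a second deposited signal is normalized coverage per base. Exon regions have coverage only, although read counts had been assumed, so read equivalents were computed from coverage; for regions shorter than a read they understate the reads.

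Indices add 0.5 to each count, and intervals combine exact conditional binomial limits. Simulated data with known changes were used to test the calculation. Named genes were, among those with 500 reads or more per library, the 10 highest and 10 lowest counted indices and far/near changes and the 5 highest and 5 lowest junctions, and, whatever their reads, up to 4 members of each list, UMPS and TYMS. Others were named after their values were seen. A list member that the rule covers is not reported here. The rule, the members and the lists were chosen with earlier results of these data known. Current gene names were found for 11120 of 11476 genes. Alternatives were other references, minima, sizes, intervals, pseudocounts and scaling. Boundary and transcript files were not used here. TMM factors came from edgeR 4.0.16 in R 4.3.3. All else was computed in Python 3.11.15 with scipy 1.17.1, numpy 2.4.6 and pandas 2.3.3, and plotted with matplotlib 3.10.9.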

Additional observations from a re-analysis of the deposited data

How the results depend on the processing

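The number of counted last exon regions, 32 in all, depended on the reference: it was 108 against the coverage of the other exons and 60 against the median of the other regions. It was 17 with a coverage of at least 10000 bases, 20 in genes with 500 reads or more per library, 15 with 1 value per last exon, 109 at 1.5-fold, 7 at 4-fold, 51 with 95% intervals and 54 with none. The 12 counted far/near changes became 42 at 1.5-fold, 4 at 4-fold and 19 with no interval. The counts of last junctions and of last exons against the other exons, and the medians by exon position, stayed within 1.5 times under the alternatives run for them. Of 139 alternatives for 44 named values, 128 kept direction and call, 9 lost the call and 2 changed sign: FUT6 ER3b was 2.64 and GCNT3 ER3a 0.87 against the other exons, where both were negative against the gene. Leaving out regions or pairs that share bases with another gene, or last exons holding an annotated junction, was chosen after seeing the data, as was the count against the other exons. TMM factors moved the median log2 gene ratio to -0.016, against 0.033; a scaling cancels in the index and the far/near change. No paired analysis was possible because each line has 1 library. Values under about 50 read equivalents are limited by depth, which was lower in MIP/5FU.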
